A study of Homo sapiens with 6 samples.

Results

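The zinc finger genes of chromosome bands 19q13.12 and 19q13.31 were described in BT-549 cells, a human triple-negative breast cancer line, that carry a tetracycline-inducible WDR5 shRNA (BT-549/tet-WDR5shRNA). The list held 47 genes, 28 in 19q13.12 and 19 in 19q13.31, and 47 of 47 had a row among the 19792 genes of the deposited table. The genes were chosen on the comparison of doxycycline (DOX) with vehicle in these same samples, so their response to DOX is not a finding here and is not described. The libraries came from 3 vehicle cultures, which received 0.1% DMSO, and 3 DOX cultures, which received 500 ng/ml for 7 days by the paper's text, all of the same puromycin-resistant line. DOX switches on the shRNA against WDR5, a subunit shared by the COMPASS complexes that methylate histone H3 at lysine 4. The labels name no control shRNA, so an effect of DOX and one of the shRNA cannot be told apart in this design. The value used throughout is the mean normalized count, a signal that the authors computed as the mean over all 6 libraries. Values of single cultures were not analysed here, so no level has an SD, no 2 levels can be said to differ beyond the spread between cultures, and the depth of the libraries is unknown.

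C2H2 zinc finger proteins bind DNA through arrays of short fingers, each folded around a zinc ion held by paired cysteines and histidines. Most genes of these chromosome 19 clusters also encode a KRAB box, which recruits the corepressor TRIM28 and, through it, enzymes that methylate histone H3 at lysine 9 and form heterochromatin, in many cases over transposable elements. The genes arose by repeated local duplication and lie side by side.

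The promoter sequences are shown first because a short element recurs in them. RefSeq gave 60 windows of 300 bases (250 before and 50 after a transcription start, GRCh38.p14) for 40 of the 47 genes, and no entry was found for ZFP14, ZNF571, ZNF781, ZNF221, ZNF155, ZNF223 and ZNF233. In reading them, the letters CTGGGAA and TGTAGT were seen side by side with 1 free base between them, which are letters of the known binding motif of the zinc finger activator ZNF143. The 250 bases before the start are printed for 5 windows, chosen because they hold this pair of letter runs and cover no annotated exon. The pair is in capitals in either orientation, and each sequence is given 5' to 3' on the strand of its gene. They are ZNF45 (chr19:43935283-43935532, minus strand), ZNF284 (chr19:44071909-44072158, plus strand), ZNF224 (chr19:44094111-44094360, plus strand), ZNF112 (chr19:44356705-44356954, minus strand) and ZNF790 (chr19:36838388-36838637, minus strand).
ZNF45: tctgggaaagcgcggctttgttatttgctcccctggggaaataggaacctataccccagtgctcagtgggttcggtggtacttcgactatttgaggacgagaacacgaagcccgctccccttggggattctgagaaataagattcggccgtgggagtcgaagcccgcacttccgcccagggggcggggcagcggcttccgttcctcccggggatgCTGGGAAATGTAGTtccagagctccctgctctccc
ZNF284: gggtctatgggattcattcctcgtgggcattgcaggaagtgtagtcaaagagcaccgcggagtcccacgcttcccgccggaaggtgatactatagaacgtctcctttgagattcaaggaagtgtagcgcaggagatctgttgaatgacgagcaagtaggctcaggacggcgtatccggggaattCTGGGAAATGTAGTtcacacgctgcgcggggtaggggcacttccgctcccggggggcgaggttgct
ZNF224: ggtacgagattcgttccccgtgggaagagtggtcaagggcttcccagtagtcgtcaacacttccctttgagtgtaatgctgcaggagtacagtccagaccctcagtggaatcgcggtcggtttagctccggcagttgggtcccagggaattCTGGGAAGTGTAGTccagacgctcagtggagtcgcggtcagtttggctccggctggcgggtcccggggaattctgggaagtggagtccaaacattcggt
ZNF112: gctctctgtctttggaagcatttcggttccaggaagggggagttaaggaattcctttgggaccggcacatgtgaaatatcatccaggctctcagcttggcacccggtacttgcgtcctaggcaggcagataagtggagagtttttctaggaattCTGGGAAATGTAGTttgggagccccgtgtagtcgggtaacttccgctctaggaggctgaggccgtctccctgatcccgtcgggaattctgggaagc
ZNF790: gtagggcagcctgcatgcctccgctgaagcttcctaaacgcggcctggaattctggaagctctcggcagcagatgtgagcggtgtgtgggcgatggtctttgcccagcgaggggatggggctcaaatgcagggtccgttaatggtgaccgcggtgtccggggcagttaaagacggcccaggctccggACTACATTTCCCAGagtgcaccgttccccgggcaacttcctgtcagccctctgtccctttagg

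The paired letters were present, on either strand, in a window of 18 of the 40 genes (45.0%, 95% Wilson interval 30.7 to 60.2). Only exact copies were counted. Near copies with a letter changed, as in windows of ZNF570, ZNF566 and ZNF527, were not, so a gene without the pair can still hold a similar element. Other zinc finger genes were picked by symbol alone (ZNF, ZFP, ZSCAN or ZKSCAN), with no filter on coding or on fingers. Of these, 22 of 514 held the paired letters (4.28%, interval 2.84 to 6.40). Among all genes of the table with a window, 134 of 13481 held them (0.994%), and among all 27305 genes with a window 163 did (0.597%). The pair was chosen after these windows had been read, so its share in the 40 genes is a description, has no test and is favoured by that choice. The intervals cover counting error only, and duplicated genes are not independent of each other.

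In 19q13.31 the paired letters were found for 9 of 15 genes (60.0%), namely ZNF45, ZNF230, ZNF284, ZNF224, ZNF225, ZNF234, ZNF235, ZNF112 and ZNF180. In 19q13.12 they were found for 9 of 25 genes (36.0%), namely ZNF565, ZNF260, ZNF790, ZNF345, ZNF829, ZNF568, ZNF420, ZNF569 and ZNF573. These were 19 distinct places in the genome, 9 in 19q13.12 and 10 in 19q13.31. ZNF420 and ZNF225 each held 2 places. One place lay across a start of ZNF790 and before ZNF345, and another before ZNF829 and ZNF568, so that 2 places served the windows of 2 genes each. The distance from the first base of the pair to the nearest start ranged from 11 bases (ZNF790) to 152 bases (ZNF225), with a median of 63. At ZNF45 the pair lay at chr19:43935304-43935317, 35 bases before the start, and at ZNF284 at chr19:44072093-44072106, 66 bases before it. In 19q13.31 every one of the 10 places read in the direction of its gene, whereas both orientations occurred in 19q13.12.

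Taken singly, the letters CTGGGAA were in 34 of the 60 windows (56.7%), against 19.9% of 652 windows of other zinc finger genes and 10.6% of 19211 windows of genes in the table. The letters TGTAGT were in 27 of 60 windows (45.0%), against 104 of the 652 and 8.03% of the 19211. In the windows printed above, ZNF45, ZNF224 and ZNF112 hold further CTGGGAA copies that are not followed by TGTAGT.

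The median level of the 18 genes with the paired letters was 67.4 mean normalized counts per kb of transcript, with a range of 17.8 (ZNF345) to 343.2 (ZNF260). The 22 genes with a window but without an exact copy of the pair had a median of 86.7 per kb, with a range of 3.23 (ZNF540) to 1796 (ZNF146). The groups thus overlap over most of their range, and genes with near copies were not set apart among the 22.

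Other motifs, from a list set up with earlier results of these data known, were also sought on both strands. The ETS-type letters CCGGAAG were in 13 of 60 windows (21.7%, interval up to 33.6), against 34.0% for other zinc finger genes and 13.9% for genes in the table. CCAAT, the letters of the box bound by NF-Y, was in 21.7% of the windows, against 44.3% and 34.3%. With 1 window a gene it was in 9 of 40 (22.5%, interval 12.3 to 37.5), which covers the 34.3% but not the 44.3%. The GC box GGGCGG, bound by SP1-type factors, was in 38.3% (interval 27.1 to 51.0), against 62.0% and 60.3%. The E-box CACGTG and the YY1-type letters AAGATGGCG were each in 2 of 60 windows (3.33%), against 8.59% and 2.73% for genes in the table. ACTACAA, letters of the start of the ZNF143 motif, was in 3 of 60, against 5.98% and 2.99%. On the other strand it reads TTGTAGT, which is TGTAGT with the base before it fixed as T. It is thus a narrower form of part of the paired letters, met within the pair only at ZNF565 and ZNF180. The cAMP response element TGACGTCA was in 0 of 60, against 2.42% of windows of genes in the table. Several windows belong to 1 gene or overlap at paired starts. The median number of CpG dinucleotides in a window was 20 for these genes, 21.5 in 19q13.12 and 16.5 in 19q13.31, against 22 for other zinc finger genes and 23 for genes in the table.

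**Figure D1:**
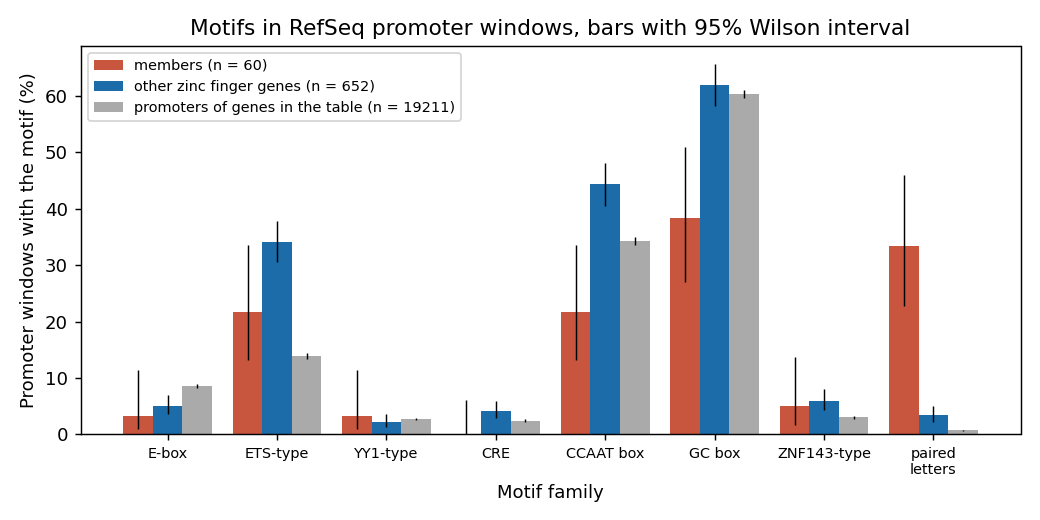
Share of promoter windows that hold each motif on either strand (vertical axis, percent), with 95% Wilson intervals as lines. Red is the zinc finger genes of both clusters (60 windows), blue other zinc finger genes picked by symbol (652) and grey genes of the table (19211). The paired letters reach 33.3% of the red windows, 3.37% of the blue and 0.724% of the grey, and were chosen after the red windows had been read, while GC box and CCAAT box bars are lowest in red.

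The median level of the 47 genes was a mean normalized count of 323.0, and 40 of the 47 lay between 100 and 1000. None was under 10, whereas 6244 of the 19792 genes in the table (31.5%) were. A mean normalized count of 100 or more was reached by 93.6% of the 47 genes, against 54.6% of all genes. It was reached by 71.0% of 31 zinc finger genes in 19p12, 79.2% of 48 in 19q13.43 and 76.4% of 313 off chromosome 19. These other groups were picked by symbol alone, so they can include antisense RNAs and pseudogenes. The list was chosen on a comparison in which low genes are hard to detect, so that a lack of low genes is no result about them.

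The 5 highest mean normalized counts were those of ZNF146 (6010), ZNF260 (1814), ZNF569 (1039), ZFP82 (1018) and ZNF529 (934.5), all in 19q13.12. The 3 under 100 were ZNF781 (70.5), ZNF345 (52.5) and ZNF540 (10.3), also in 19q13.12. ZNF146 alone held 24.4% of the summed level of the 47 genes, which together made up 0.0928% of the sum over the table. In 19q13.31 the mean normalized count ranged from 102.0 (ZNF233) to 714.0 (ZNF227).

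Because a longer transcript yields more reads, genes were compared per kb of their main GENCODE transcript. ZNF781 was left out here, since 2 gene models carry its symbol. The median of the other 46 genes was 70.9 mean normalized counts per kb, the quartiles were 44.6 and 141.1, and 31 of 46 lay within 2-fold of the median. ZNF146 stood far above the rest at 1796 per kb. The genes next in order were ZNF260 (343.2), ZNF569 (255.5), ZNF227 (234.2), ZNF226 (188.6), ZNF529 (181.7), ZNF45 (180.4) and ZFP82 (171.4). At the low end, above ZNF540 (3.23), came ZFP14 (17.2), ZNF345 (17.8), ZNF112 (27.9) and ZNF225 (35.7). The spread between cultures is not known, so the order of near neighbours such as ZNF529 and ZNF45 is not established.

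**Figure D2:**
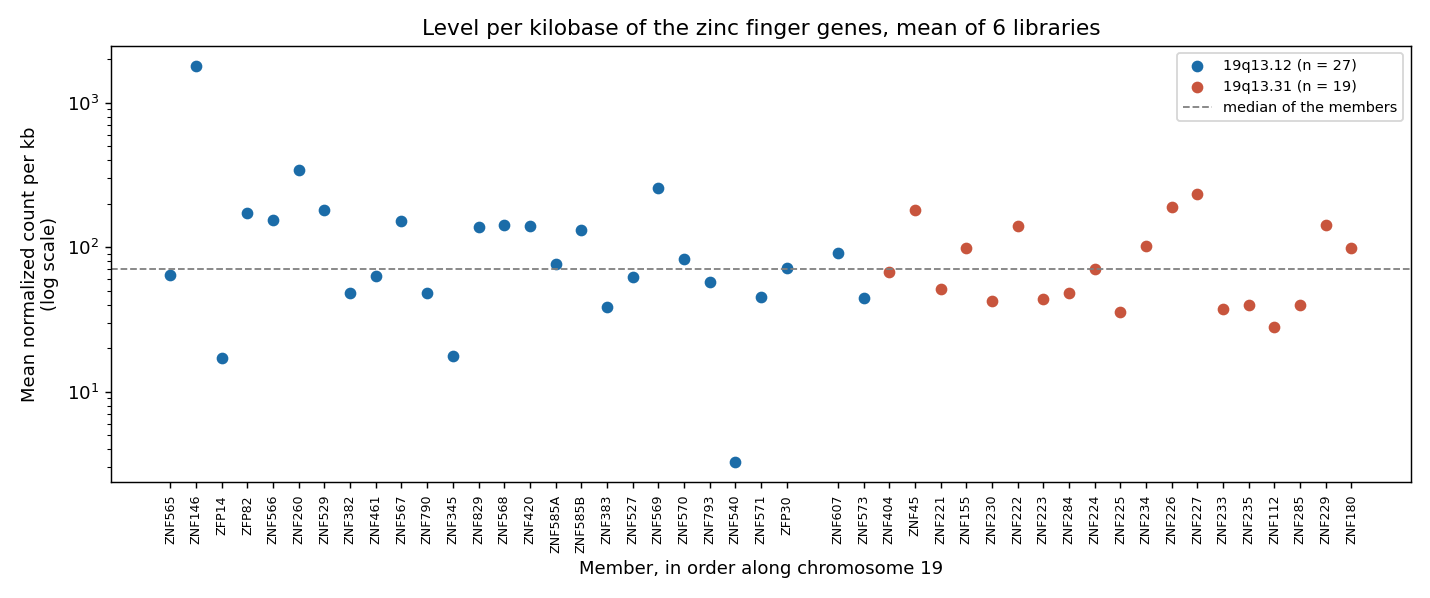
Mean normalized count per kb of main transcript over 6 libraries (log axis) for 46 zinc finger genes in their order along chromosome 19, blue for 19q13.12 and red for 19q13.31, with no error bars because values of single cultures were not analysed. Most points lie near the dashed median of 70.9, with ZNF146 at 1796 above and ZNF540 at 3.23 below.

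Some of these genes have described roles. ZNF224 (70.6 per kb) is a KRAB repressor first studied at the aldolase A gene, and ZNF382 (48.4 per kb) has been studied as a tumor suppressor silenced by methylation. ZNF420 (140.3 per kb), also known as APAK, is a negative regulator of p53. ZNF568 (141.3 per kb) is the human counterpart of a mouse gene that silences a placental Igf2 promoter. ZNF146 (10 fingers in 292 codons) and ZNF260 (13 in 412) encode proteins made up almost wholly of fingers. They are the 2 highest of the list per kb. ZNF345, with 15 fingers in 488 codons, was near the low end at 17.8 per kb.

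The median was 76.3 per kb in 19q13.12 (27 genes) and 66.7 per kb in 19q13.31 (19 genes), and their interquartile ranges overlapped. Zinc finger genes of 19p12, picked by symbol alone, had a median of 40.2 per kb. Those of 19q13.43 had 81.8 and those off chromosome 19 had 89.4, picked in the same way. All 18309 genes with a length had a median of 80.6 per kb, and the 13017 of them whose mean normalized count was 10 or more had 208.6. The median of the 46 genes thus stood at the 48.5th percentile of all genes and at the 27.8th of the genes at 10 or more. These are medians side by side with no test.

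**Figure D3:**
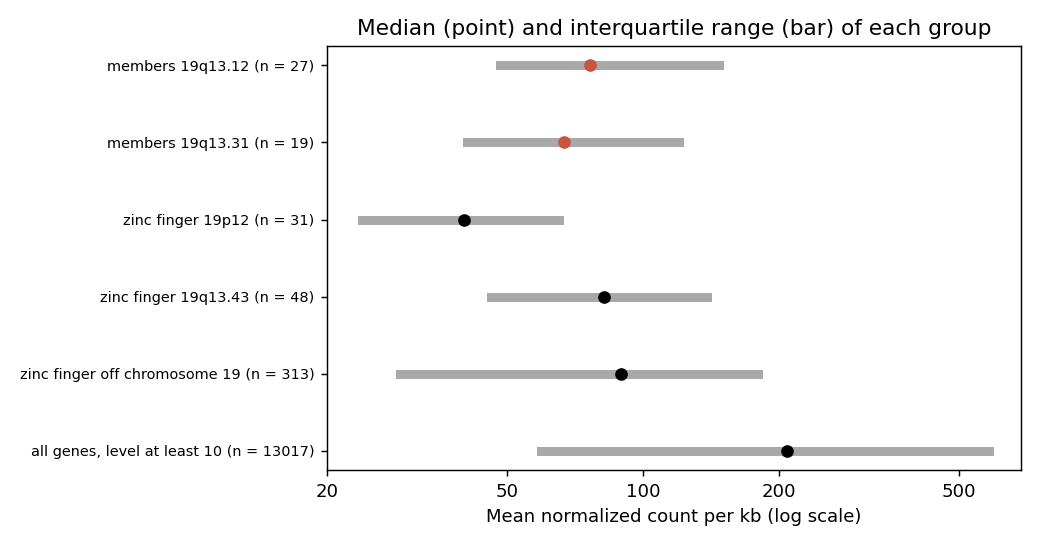
Median (point) and interquartile range (bar) of the mean normalized count per kb (log axis) in each group of genes. Points are red for the 2 clusters, and the other zinc finger groups were picked by symbol. The clusters, at 76.3 and 66.7, lie above the 19p12 zinc finger genes (40.2), near those of 19q13.43 (81.8), and below the genes at 10 or more (208.6).

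The 28 genes of 19q13.12 lay within chr19:36182276-37817300 (GRCh38), 11 on the plus and 17 on the minus strand. The 19 genes of 19q13.31 lay within chr19:43872365-44500524, 12 on the plus and 7 on the minus strand. In the table, no protein-coding gene outside the zinc finger family lay wholly inside either span, so a level for such neighbours could not be set beside that of the clusters. The unlisted protein-coding zinc finger genes inside 19q13.12 were HKR1 (mean normalized count 651.7) and ZNF850 (209.0). LINC00665, a long noncoding RNA between ZNF565 and ZFP14, had a mean normalized count of 248.9.

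**Figure D4:**
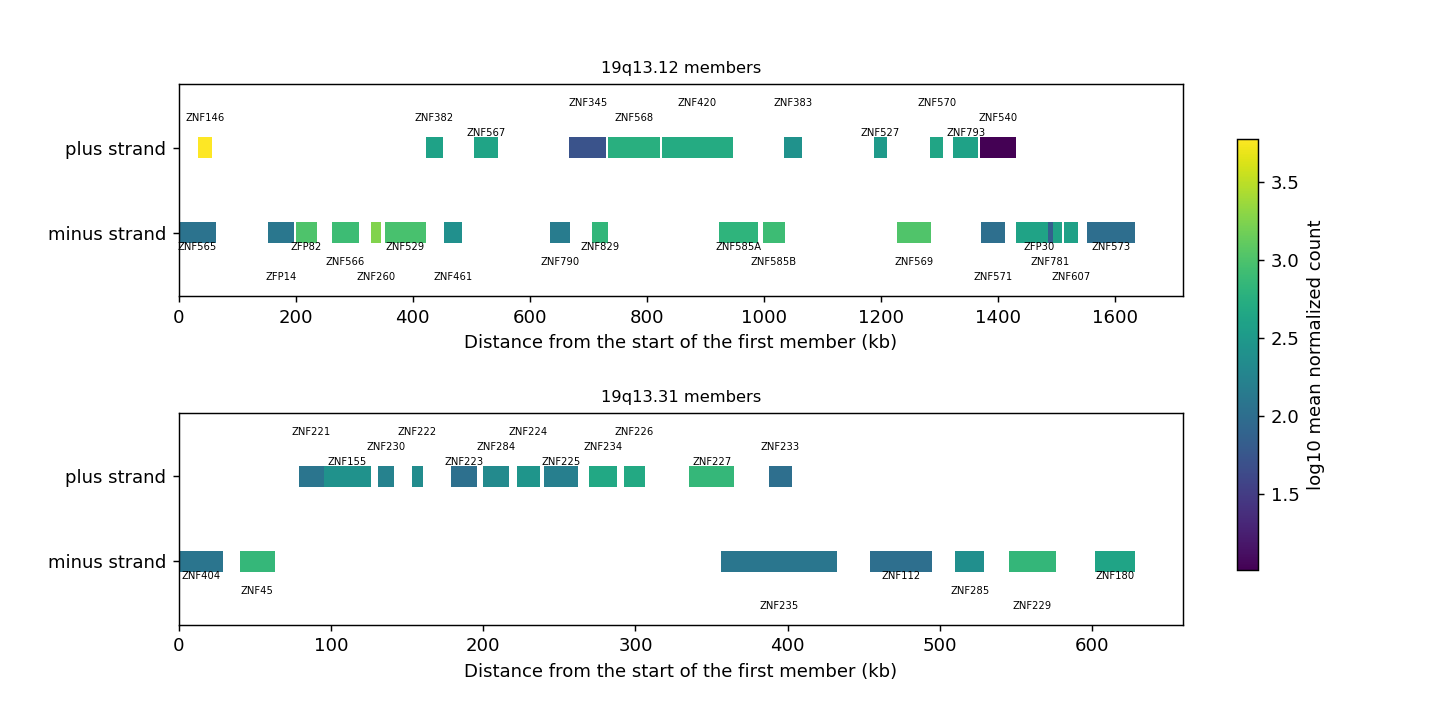
Maps of both clusters, with each gene drawn to scale on its strand by distance from the first gene (kb) and coloured by the log10 of its mean normalized count. ZNF146 (yellow) and ZNF540 (dark purple) are the extremes, and runs of genes on 1 strand are seen, such as ZNF221 to ZNF226 in 19q13.31.

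Of the genes, 3 pairs started back to back, with main transcript starts within 1000 bases, and all were in 19q13.12. ZNF829 and ZNF568 started 41 bases apart and had like levels, 137.0 and 141.3 per kb. ZNF565 and ZNF146 started 441 bases apart and differed 28.0-fold, at 64.1 and 1796 per kb. ZNF571 and ZNF540 started 84 bases apart and differed 13.9-fold, at 44.8 and 3.23 per kb. With any RefSeq start in place of the main one, 6 pairs were found. ZNF571 has no RefSeq window, so its pair with ZNF540 was not among them, and 4 others came in. Levels per kb in these 4 differed 2.43-fold (ZNF461 and ZNF567), 3.76-fold (ZNF529 and ZNF382), 3.10-fold (ZNF569 and ZNF570) and 2.71-fold (ZNF790 and ZNF345). ZNF829 and ZNF568 were the pair with the smallest difference under either set of starts.

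The coding sequences were read from the annotation. The 46 coding genes encoded between 6 (ZNF793) and 21 (ZNF585A and ZNF585B) C2H2 fingers, with a median of 13, which was 12 in 19q13.12 and 14 in 19q13.31. A pattern of the KRAB A box was found in 41 of the 46, and not in ZNF146, ZNF260, ZNF345, ZNF229 and ZNF180. No match says only that the letters of the pattern are not there. The pattern was met for 41 of 47 entries, and other forms of the box were not sought. ZNF781 is annotated as a transcribed pseudogene. Across the 46 genes Spearman's rho between the number of fingers and the level per kb was 0.12, which is a description over genes of shared origin.

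Sequence shared with other annotated genes bears on how reads are assigned. Of the 47, 21 shared no run of 64 bases with a transcript of any other annotated gene and 9 shared over 10% of such runs. Runs were compared in the sense direction only, so antisense sharing is not in these counts. ZNF224, among the 21, overlaps exons of ZNF225-AS1 antisense over 1942 bases. The highest shares after ZNF781 were those of ZNF223 (62.2%) and ZNF284 (43.2%), both with an unnamed gene model on the same strand. ZNF585A and ZNF585B shared 15.7% and 23.7%, chiefly with each other, and their levels (76.3 and 130.7 per kb) are uncertain for that reason. The same limit holds for the levels of the other genes over 10%, ZNF223, ZNF284, ZNF568 (13.7%) and ZNF112 (11.1%) among them. Main transcript exons of 24 genes overlapped an exon of another gene, on the same strand for 11 and antisense for 13. Overlaps of other transcripts of the listed genes were not counted. The library kit keeps the strand, but how the counting used it is not given in the sources used here.

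The listed genes of the KRAB corepressor pathway had higher levels per kb, on their means over the 6 libraries and with no test. Of the 24 listed genes, 24 lay above the median of the zinc finger genes per kb, and 19 lay above ZNF260. Many other genes lie above these marks too. The median of the zinc finger genes was at the 48.5th percentile of all genes, and at the 27.8th of those at 10 or more. ZNF260 was at the 73.2nd percentile of all genes. The median of the 24 listed genes was 583.3 per kb. TRIM28, the corepressor that binds the KRAB box, was at 1767 per kb. SETDB1, which methylates histone H3 at lysine 9, was at 303.1, and its partner ATF7IP was at 475.8. The HP1 genes CBX1, CBX3 and CBX5, readers of that mark, were at 1175, 3364 and 665.7. Among the NuRD genes, CHD3, CHD4, HDAC1 and HDAC2 were at 1024, 956.9, 1565 and 571.5. The HUSH genes TASOR, MPHOSPH8, PPHLN1 and MORC2 ranged from 278.2 (MORC2) to 661.7 (PPHLN1). RESF1, listed with them, was at 192.7. DNMT1 and UHRF1, which maintain DNA methylation, were at 970.5 and 413.7. ZNF274 (614.6), listed for its part in recruiting SETDB1, itself encodes a KRAB box and is among the 19q13.43 zinc finger genes above. The lowest of the list was TRIM24 at 123.8 per kb.

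The cell line was checked by mean normalized counts. The mesenchymal markers were high, with VIM at 47782, FN1 at 30461, SPARC at 19657 and AXL at 5147. ESR1 (0.790), PGR (0.801) and EPCAM (1.30) were near 0, CDH1 was at 59.6, and ERBB2 (1221) was not low. PECAM1, an endothelial marker, was at 2.86 and PTPRC, a leukocyte marker, at 44.7. WDR5 was at 1143, which is a mean over both groups and therefore checks no label.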

How the data were processed

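Transcripts were measured by RNA-seq in 3 vehicle and 3 DOX cultures of BT-549/tet-WDR5shRNA cells. By the labels and the paper's methods, the authors prepared stranded mRNA libraries, aligned reads to GRCh38 with STAR and normalized counts with DESeq2. The gene counter is not given in the sources used here. The labels name a column kit for RNA and the paper Trizol. The deposited mean normalized count is a signal value, the authors' mean over all 6 libraries, with no SD. The table's other columns hold the authors' comparison of DOX with vehicle (log2 fold change, standard error, Wald statistic, p and adjusted p). They were not used, so the tests planned on them or on counts per library were not run, and no depth or replicate error could be given.

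Levels were divided by the length of the main transcript in GENCODE 44 (GRCh38). Of the 19792 symbols, 17729 matched directly, 581 by a RefSeq synonym and 1482 did not match. Fingers (C, any 2, C, any 12, H, any 3 to 5, H) and the KRAB pattern were sought in translated transcripts. Promoter windows came from RefSeq (GRCh38.p14), and 60 of 60 equalled the reference. The finger count and the search for shared runs were tested on made-up sequences, and the other steps had no such test. Python 3.11.15, numpy 2.4.6, pandas 2.3.3 and matplotlib 3.10.9 were used.

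The genes and lists were chosen with earlier results of these data known. The naming rule was to give the 5 highest levels, any level under 10 and the corepressor list, and its parts on fold changes were not applied. Other genes, and the paired promoter letters, were named after their values were seen. The alternatives were other lengths, filters, start sites, windows and backgrounds.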

Additional observations from a re-analysis of the deposited data

How the results depend on the processing

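No paired analysis was possible because values of single libraries were not used and no test was run, and for the same reason leaving out each replicate and count tests were not run. Alternatives on fold changes (other adjustments, thresholds, null hypotheses, centring, shrinkage, weights, GC content and length) were not run either. Of 18 alternatives, most of them chosen after seeing the data, 14 left the value within 1.5 times or its interval and 4 moved it. The median level per kb of 70.9 became 185.2 with the coding length, which is shorter than the transcript. The median percentile of 48.5 became 27.8 among genes whose mean normalized count was 10 or more. The back-to-back pairs rose from 3 to 6 with any RefSeq start, with 4 pairs gained and ZNF571 with ZNF540 lost, since ZNF571 has no RefSeq window. The genes with over 10% shared runs rose from 9 to 16 with runs of 32 bases. The 18 genes with the paired promoter letters stayed 18 when only the 250 bases before the start were searched.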
